A study of Mus musculus with 4 samples.

Results

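The miRNAs of extracellular vesicles (EVs) secreted by primary mouse hepatocytes were compared across 2 diets and 2 genotypes, and the question addressed here was whether the high-fat diet (HFD) changed each miRNA by the same factor when hepatocytes lacked Ggpps as when they carried it. For each miRNA, the diet ratio is the signal in EVs from HFD-fed mice over that from chow-fed mice, and the interaction is the log2 diet ratio in liver Ggpps knockout (LKO) EVs minus the log2 diet ratio in wild-type (WT) EVs. A positive interaction means a higher diet ratio in LKO EVs, and a value of 1 is a 2-fold difference between the 2 ratios. The interaction was computed for the 443 miRNAs of the 1881 on the array (23.6%) that were above background on all 4 arrays, meaning that most spots of at least 1 of their probes were marked well above background. Another 99 were above background on some arrays only and have no interaction.

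There were 4 groups with 1 array each. HFD-LKO EV and Chow-LKO EV came from mice with floxed Ggpps and Mx1-Cre, a Cre gene switched on by injected polyinosinic-polycytidylic acid (PIPC), given at 7 weeks of age. The study treats this as a liver knockout, while Mx1-Cre is also known to act in blood-forming cells. The arrays carry no probe for Ggpps, so its loss was not checked here. HFD-EV and Chow-EV came from WT mice, and the sources used here do not say whether these were injected. All mice were males of the B6 strain, 20 weeks old, after 12 weeks on a diet with 60% of calories from fat or on chow from the age of 8 weeks. Hepatocytes were cultured for 48 h, and each EV RNA was a pool from 4 animals. No group has a replicate, so no test was made and no p-value exists. Each error after ± is an SD over replicate spots of the array (for a log2 ratio, of all the arrays in it). Variation among mice, hepatocyte cultures or EV isolations is not in it.

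Ggpps makes geranylgeranyl diphosphate, a lipid of the mevalonate pathway that is attached to small GTPases such as the Rab proteins and anchors them in membranes. Rab27A is one of those that act when multivesicular bodies dock at the plasma membrane and release vesicles. A mature miRNA is cut from 1 arm (5p or 3p) of an RNA hairpin and pairs with its targets mainly through its seed, bases 2 to 8. Only some of the miRNAs of a cell are carried out in EVs, and miR-122, the dominant miRNA of hepatocytes, is a usual marker of hepatocyte origin.

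The results turn most on 8 miRNAs whose RefSeq sequences (GRCm38.p6) are shown 5′ to 3′ with the seed in capitals. The first 6 had diet ratios at least 2-fold higher in LKO EVs, miR-6392-3p had the lowest interaction, and miR-210-3p the lowest among the miRNAs the study names.
miR-7660-3p: aUCUGUAAgugaugggcaaagua
miR-6238: uUAUUAGUcaguggaggaaaug
miR-7032-5p: cCCAGGGUgguccccgagaggguggu
miR-6939-5p: cAGGCAGCugguugguggaag
miR-5622-3p: cUUAGCUGgguagugguggugc
miR-135a-1-3p: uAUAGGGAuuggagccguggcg
miR-6392-3p: gACGCAGGuuugccggguccucu
miR-210-3p: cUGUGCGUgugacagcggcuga
The 8 seeds differ from one another. Mature sequences were found by name for 376 of the 443 miRNAs (84.9%).

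Most miRNAs had like diet ratios in both genotypes. The median interaction was 0.06, the quartiles were -0.14 and 0.26, and 383 of 443 miRNAs (86.5%) had diet ratios within 1.5-fold of each other. The diet ratio was at least 1.5-fold above 1 in both genotypes for 35 miRNAs and at least 1.5-fold below 1 in both for 18. Among the 443, 16 (3.61%) had a diet ratio at least 2-fold higher in LKO EVs and 1 (0.226%), miR-6392-3p, at least 2-fold lower. At 1.5-fold the counts were 45 (10.2%) and 15 (3.39%). An interaction more than 2 spot SDs above 0 was measured for 88 miRNAs (19.9%) and one more than 2 spot SDs below 0 for 51 (11.5%). Of the 16 past 2-fold, 15 were also past 2 spot SDs, the exception being miR-7037-5p (1.03 ± 0.57). Of its 2 probes, 1 was above background on all 4 arrays (1.12 ± 0.53) and the other on none. Its scaled signal in HFD-EV, 19.6 ± 5.4, was the lowest of any miRNA above background on that array.

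The position of 0 is set by the scaling between arrays and the order of the miRNAs is not. Signals were divided by each array's 75th percentile over the 443 miRNAs, and any set of scaling factors moves all interactions by 1 constant. Without scaling every interaction was lower by 0.36, the median was -0.30, and the counts were 4 higher and 13 lower. Quantile normalisation, which is no single factor, gave 12 higher and 3 lower. Measured from the median of all members, 13 were higher and 1 lower by 2-fold, the same counts with and without scaling. The 4 control probes named dmr that gave signal had unscaled interactions from -0.20 to 0.25. Scaled on their mean log2 signal, the counts were 4 higher and 14 lower. The sources used here do not say whether the RNA these probes read was added in equal amounts.

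The array positions move with the interaction as well. A single slide, scanned once, held the 4 arrays. HFD-LKO EV was at position 3, Chow-LKO EV at 4, HFD-EV at 1 and Chow-EV at 2, so the interaction sets positions 3 and 2 against positions 4 and 1. The 75th percentiles before scaling were 527.7 for HFD-LKO EV and 507.9 for Chow-EV, against 614.1 for Chow-LKO EV and 561.0 for HFD-EV. The SDs of the negative control spots were 3.27 and 3.82 in the first pair and 6.03 and 6.63 in the second. The interaction and the array position cannot be told apart in this design.

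**Figure D1:**
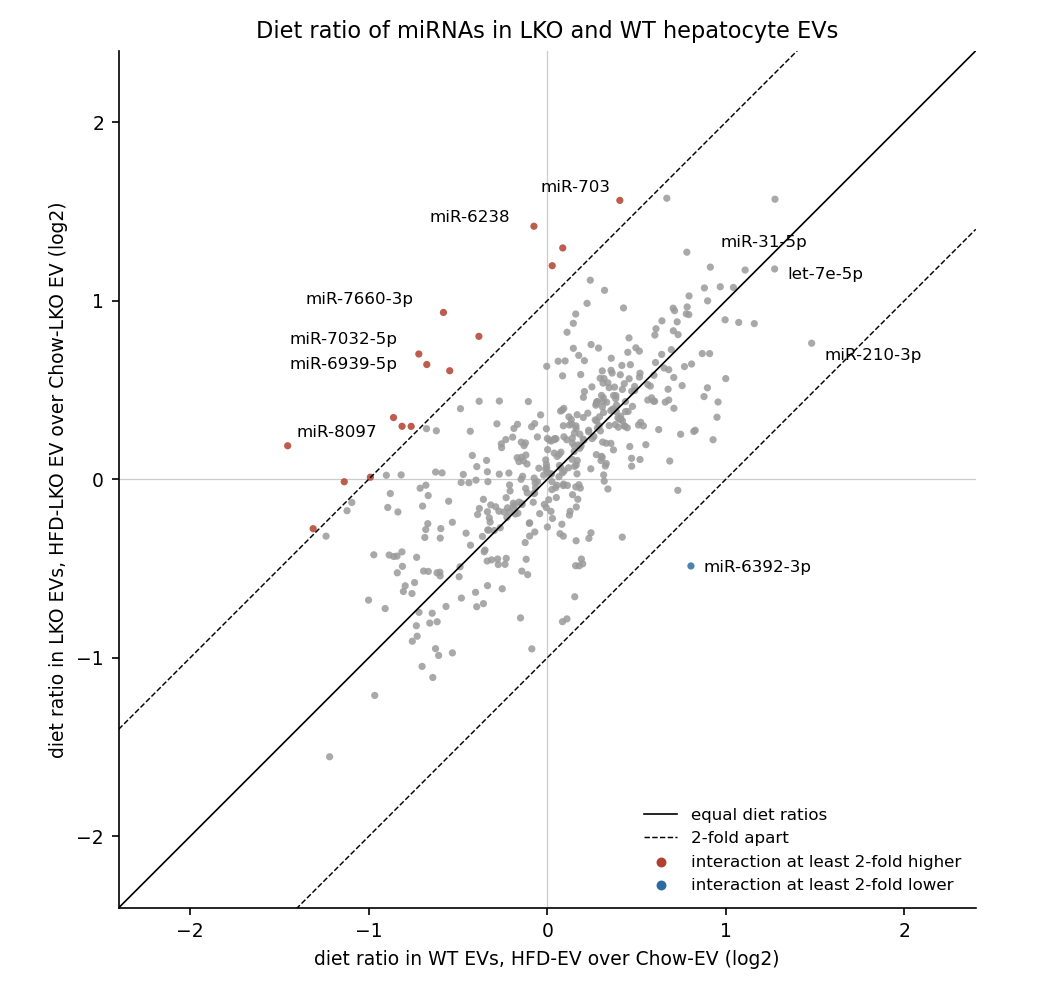
Each point is 1 of 443 miRNAs, with its diet ratio in WT EVs (HFD-EV over Chow-EV, log2) on the x axis and its diet ratio in LKO EVs (HFD-LKO EV over Chow-LKO EV, log2) on the y axis. The solid line marks equal ratios and the dashed lines a 2-fold difference, with 16 miRNAs above the upper dashed line and miR-6392-3p alone below the lower one.

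The 16 miRNAs with higher diet ratios in LKO EVs reached that difference in 3 ways. In 7 of them the diet ratio was at least 1.5-fold above 1 in LKO EVs and under 1.5-fold either way in WT EVs. In another 7 it was under 1.5-fold in LKO EVs and at least 1.5-fold below 1 in WT EVs. In 2, miR-7032-5p and miR-6939-5p, it was at least 1.5-fold above 1 in LKO EVs and below 1 in WT EVs. HFD-LKO EV was the array with the highest scaled signal for 11 of the 16, and HFD-EV the array with the lowest for 11. A high interaction, by which the 16 were chosen, itself favours high HFD-LKO EV and Chow-EV and low Chow-LKO EV and HFD-EV. These counts are therefore descriptions of the choice. Over all 443 miRNAs, 35 were past 1.5-fold upwards in LKO EVs alone, 13 downwards in LKO EVs alone, 22 upwards in WT EVs alone and 42 downwards in WT EVs alone.

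miR-6238, miR-703, miR-1291 and miR-7647-3p were highest in HFD-LKO EV and at least 2-fold above Chow-LKO EV there. The scaled signals of miR-6238 (in arbitrary units, each array brought to the geometric mean of the 75th percentiles, 551.3) were 955.5 ± 70.5 in HFD-LKO EV, 357.8 ± 38.6 in Chow-LKO EV, 284.9 ± 19.8 in HFD-EV and 300.0 ± 25.1 in Chow-EV. The other 3 arrays lay close together, and the interaction was 1.49 ± 0.25, a 2.81-fold difference between diet ratios. miR-703 (203.1 ± 7.6, 68.8 ± 7.9, 107.9 ± 9.3 and 81.4 ± 9.7 in the same order of arrays) was also highest in HFD-LKO EV, with an interaction of 1.16 ± 0.27. Of its 4 probes, those above background on all 4 arrays gave 1.27 ± 0.38 and 1.18 ± 0.37, and the others were above it on none. miR-1291 had scaled signals of 94.9 ± 5.2 in HFD-LKO EV, 38.7 ± 6.1 in Chow-LKO EV, 56.0 ± 5.9 in HFD-EV and 52.7 ± 4.4 in Chow-EV, an interaction of 1.21 ± 0.31. Of its 3 probes, 1 was above background on all 4 arrays (interaction 1.08 ± 0.42). miR-7647-3p had a log2 diet ratio of 1.20 in LKO EVs and 0.03 in WT EVs.

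miR-8097 and miR-3102-3p were low in HFD-EV. miR-8097 had the highest interaction of all, 1.64 ± 0.24 or 3.12-fold. Its scaled signal was 109.3 ± 5.7 in HFD-LKO EV, 95.9 ± 6.4 in Chow-LKO EV, 50.5 ± 6.1 in HFD-EV and 138.2 ± 10.6 in Chow-EV, so the 2 LKO arrays lay between the 2 WT arrays. miR-3102-3p had 71.7 ± 4.3 in HFD-LKO EV, 72.4 ± 6.0 in Chow-LKO EV, 40.7 ± 5.0 in HFD-EV and 89.6 ± 5.5 in Chow-EV, an interaction of 1.12 ± 0.25. Its hairpin, at Mir3102 within the span of Arhgef17, gave a different picture on its other arm, where miR-3102-5p had an interaction of -0.17 and miR-3102-5p.2-5p of -0.24. miR-5622-3p, from within the span of Tpx2, had 10544 ± 224 in HFD-LKO EV, 8298 ± 99 in Chow-LKO EV, 4879 ± 88 in HFD-EV and 8860 ± 180 in Chow-EV. HFD-EV was lowest by far, and the interaction of 1.21 ± 0.05 was 1.22 and 1.20 on its 2 probes. miR-1306-3p, cut from a hairpin within Dgcr8, the gene of the RNA-binding partner of Drosha in miRNA processing, had log2 diet ratios of 0.30 in LKO EVs and -0.81 in WT EVs (interaction 1.11 ± 0.11). miR-30c-1-3p, the lesser arm of a miR-30 hairpin, had 0.30 and -0.76 (1.06 ± 0.21), and miR-490-5p, from within Chrm2, had 0.01 and -0.99 (1.002 ± 0.31). Of the 4 probes of miR-30c-1-3p, 1 was above background on all 4 arrays (1.09 ± 0.19) and the others on none.

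miR-7032-5p and miR-6939-5p were higher on HFD in LKO EVs and lower on HFD in WT EVs. miR-7032-5p, at chr5:123996857-123996882 (plus strand) within the span of Hip1r, had scaled signals of 211.4 ± 10.3 in HFD-LKO EV, 130.0 ± 8.3 in Chow-LKO EV, 99.0 ± 7.8 in HFD-EV and 163.0 ± 10.2 in Chow-EV. Its log2 diet ratios were 0.70 in LKO EVs and -0.72 in WT EVs, and the interaction was 1.42 ± 0.19. miR-6939-5p, at chr12:112659327-112659347 (minus strand) within Akt1, the gene of a kinase of insulin signalling, had 537.5 ± 24.97 in HFD-LKO EV, 344.2 ± 15.4 in Chow-LKO EV, 424.8 ± 16.2 in HFD-EV and 678.1 ± 31.7 in Chow-EV. The diet ratios were 0.64 in LKO EVs and -0.67 in WT EVs on the log2 scale, with an interaction of 1.32 ± 0.13. miR-7660-3p, within Cand2, followed the same form (144.5 ± 6.8, 75.6 ± 6.8, 101.0 ± 5.7 and 151.0 ± 10.6 in the same order of arrays), although its WT diet ratio of -0.58 was just short of 1.5-fold. Its interaction was 1.52 ± 0.20, and between 1.43 and 1.55 on each of 3 probes. miR-135a-1-3p, within the span of Glyctk, had 2064 ± 54 in HFD-LKO EV, 1354 ± 38 in Chow-LKO EV, 377.9 ± 21.6 in HFD-EV and 551.7 ± 19.8 in Chow-EV. It was higher in LKO than in WT EVs on both diets, with a log2 ratio of LKO to WT of 2.45 on HFD and 1.30 on chow, and all 4 probes gave interactions between 0.99 and 1.26. The probes of miR-7020-5p, within Aldh4a1, disagreed: the interaction was 1.18 ± 0.08 over both, 1.38 ± 0.08 on the one and -0.29 ± 0.24 on the other.

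**Figure D2:**
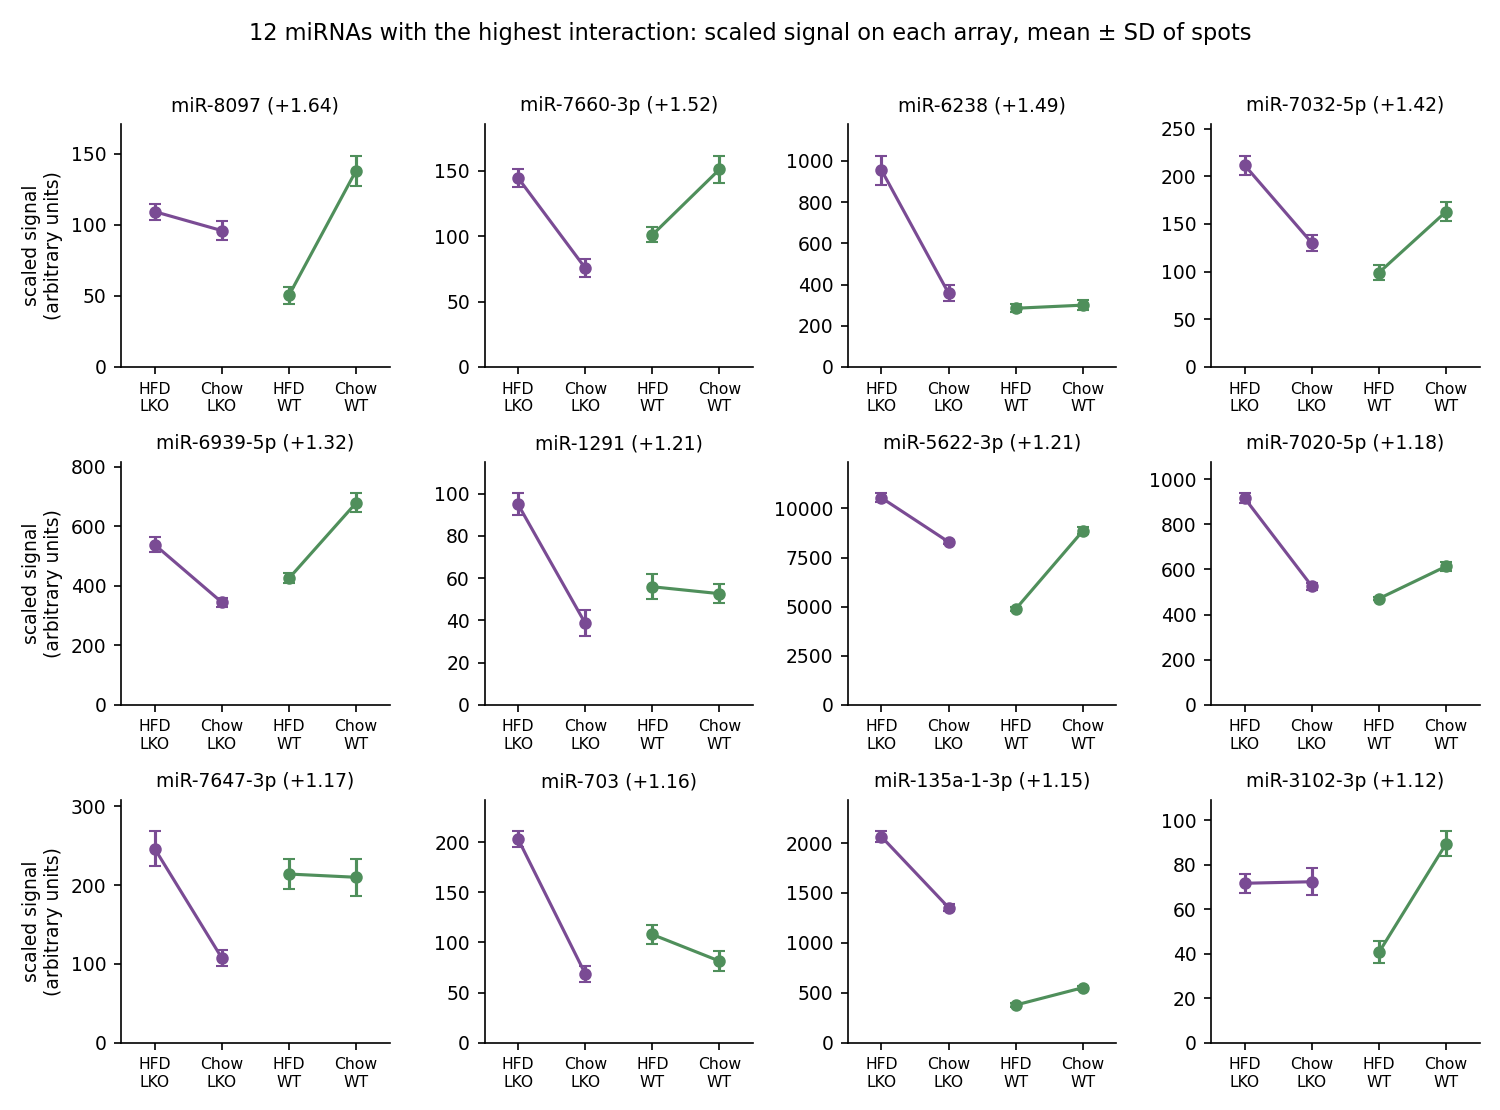
Each panel shows 1 of the 12 miRNAs with the highest interaction past 2 spot SDs, with the scaled signal (arbitrary units, from 0) on the y axis and the 4 arrays on the x axis. Points are means and bars the SD of the spots, lines join the 2 diets of a genotype, and the interaction stands beside the name. In miR-6238 HFD-LKO EV stands alone at 955.5, and in miR-8097 HFD-EV is lowest at 50.5.

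The miRNAs with the lowest interactions are described next. By definition, a negative interaction needs HFD-LKO EV below Chow-LKO EV, HFD-EV above Chow-EV, or both. miR-6392-3p lies at chr15:84168334-84168356 (plus strand), within the span of Pnpla3, the gene of a lipid droplet protein of hepatocytes. It had 142.4 ± 8.2 in HFD-LKO EV, 199.4 ± 11.6 in Chow-LKO EV, 787.4 ± 37.8 in HFD-EV and 450.7 ± 30.6 in Chow-EV. Both LKO arrays were below both WT arrays, the log2 diet ratio was -0.49 in LKO EVs and 0.80 in WT EVs, and the interaction was -1.29 ± 0.17, or -1.31 and -1.21 on its 2 probes. The 23 measured miRNAs numbered miR-6335 to miR-6419, miR-6392-3p among them, had a median of -0.20, against 0.06 over all measured miRNAs. Of the 23, 13 were below 0 and 10 above, against 175 and 268 of all 443. Past 2 spot SDs there were 4 below 0 and 2 above, against 11.5% and 19.9% of all 443. Of the 23, miR-6392-3p alone was past 1.5-fold, against 3.39% of all 443 in its direction and 10.2% in the other. The highest was miR-6415 at 0.55 ± 0.52. miR-450a-2-3p, of the X-linked miR-322 to miR-450 cluster, was likewise lower in both LKO arrays, with 65.5 ± 6.4 in HFD-LKO EV, 56.2 ± 6.2 in Chow-LKO EV, 432.3 ± 16.4 in HFD-EV and 227.1 ± 14.3 in Chow-EV (interaction -0.71 ± 0.24). The only other member of that cluster above background on all 4 arrays, miR-322-5p, was at -0.03 ± 0.27. Of the 4 probes of miR-450a-2-3p, those above background on all 4 arrays gave -0.75 ± 0.26 and -0.55 ± 0.33, and the others were above it on none.

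miR-210-3p is the best known miRNA induced by hypoxia-inducible factor, and it was higher on HFD in both genotypes, by less in LKO EVs. Its scaled signals were 387.7 ± 16.03 in HFD-LKO EV, 228.6 ± 10.4 in Chow-LKO EV, 575.8 ± 17.0 in HFD-EV and 206.3 ± 10.6 in Chow-EV. The 2 chow arrays were close and HFD-EV was above HFD-LKO EV. The log2 diet ratio was 0.76 in LKO EVs and 1.48 in WT EVs, the highest WT diet ratio of the 443, and the interaction was -0.72 ± 0.12. miR-712-5p, which in mouse is cut from the precursor of ribosomal RNA, had 297.2 ± 12.9, 310.2 ± 12.2, 415.5 ± 16.2 and 250.2 ± 9.6 in the same order of arrays, so HFD-EV alone was high (interaction -0.79 ± 0.12). miR-3472, on the X chromosome within Rtl4, had 1083 ± 39 in HFD-LKO EV, 1708 ± 55 in Chow-LKO EV, 1775 ± 59 in HFD-EV and 1595 ± 58 in Chow-EV. Here HFD-LKO EV alone was low, and the interaction was -0.81 ± 0.10. The others among the 12 lowest were miR-7211-3p (-0.89 ± 0.15), miR-7016-5p (-0.88 ± 0.26), miR-3113-5p (-0.86 ± 0.42), miR-7687-5p (-0.74 ± 0.16), miR-669p-3p (-0.64 ± 0.14), miR-467f (-0.64 ± 0.16) and miR-6995-5p (-0.63 ± 0.13).

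**Figure D3:**
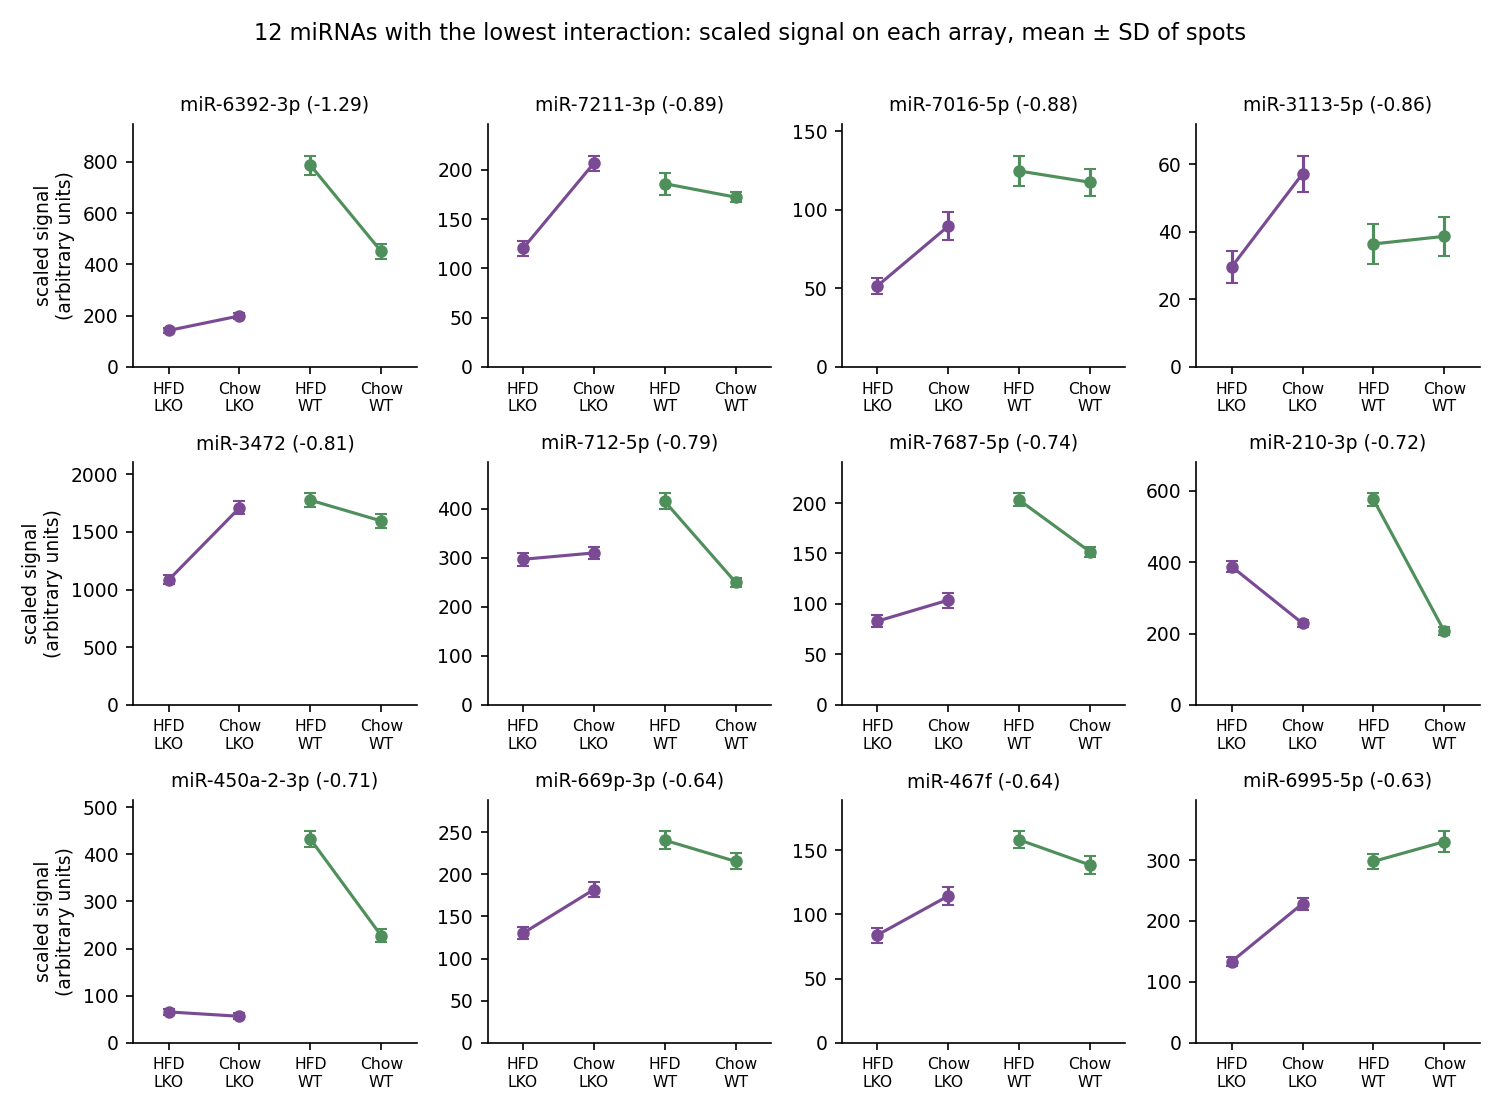
Each panel shows 1 of the 12 miRNAs with the lowest interaction past 2 spot SDs, drawn as scaled signal (arbitrary units, from 0) on each of the 4 arrays, with means and SDs of spots and the interaction beside the name. miR-6392-3p and miR-450a-2-3p are below both WT arrays in both LKO arrays, and miR-3472 is low in HFD-LKO EV alone, at 1083.

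The let-7 family, which share the seed GAGGUAG and restrain growth and promote differentiation, had 9 of 10 members above background on all arrays and interactions from -0.12 to 0.13, with a median of 0.03 against 0.06 over all 443. Their median log2 diet ratio was 0.52 in LKO EVs and 0.56 in WT EVs. Summed over the 9, the scaled signal was 21000 in HFD-LKO EV, 15898 in Chow-LKO EV, 30360 in HFD-EV and 22362 in Chow-EV. Within the family let-7e-5p had the steepest diet ratios, 1.18 in LKO EVs and 1.27 in WT EVs, from scaled signals of 56.5 ± 5.91 in HFD-LKO EV, 24.97 ± 3.61 in Chow-LKO EV, 243.2 ± 9.71 in HFD-EV and 100.6 ± 7.01 in Chow-EV. Both LKO arrays were below both WT arrays, and the interaction was -0.10 ± 0.28. Of its 2 probes, 1 was above background on all 4 arrays (-0.20 ± 0.36) and the other on 3 (0.16 ± 0.40). Under the alternatives its interaction lay between -0.49 and -0.0032 except with Feature Extraction's total gene signal, which gave -4.8803. Members of this family differ by few bases, and their part in each other's signal was not tested.

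The miR-17-92 cluster and its paralogues, which promote proliferation, had 10 of 13 listed members above background on all arrays, all with interactions above 0 as scaled, from 0.07 (miR-93-5p) to 0.29 (miR-18a-5p), and all below 0 without scaling. The median was 0.19 as scaled (-0.17 without scaling), none reached 1.5-fold, and 4 of the 10 were past 2 spot SDs as scaled, against 19.9% of all 443 in this direction. Over all 443 miRNAs, 268 were above 0 as scaled. miR-20a-5p had 1904 ± 41.6 in HFD-LKO EV, 979.8 ± 31.4 in Chow-LKO EV, 2108 ± 53.3 in HFD-EV and 1293 ± 22.1 in Chow-EV, and an interaction of 0.25 ± 0.07. Both HFD arrays were above both chow arrays. miR-17-5p, miR-20a-5p and miR-20b-5p share the seed AAAGUGC, and miR-19a-3p and miR-19b-3p the seed GUGCAAA, as their sequences show with the seed in capitals.
miR-17-5p: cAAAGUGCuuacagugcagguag
miR-20a-5p: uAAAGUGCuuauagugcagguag
miR-20b-5p: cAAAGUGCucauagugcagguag
miR-19a-3p: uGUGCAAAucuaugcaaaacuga
miR-19b-3p: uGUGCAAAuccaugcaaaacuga
Their interactions were 0.15 ± 0.21, 0.25 ± 0.07, 0.23 ± 0.09, 0.23 ± 0.10 and 0.24 ± 0.09 in that order. Those with a common seed differ by few bases, and their part in each other's signal was not tested.

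The clusters that join miR-23, miR-24 and miR-27 lay on the other side, with all 5 members below 0 and a median of -0.17, and the miR-29 family, repressors of collagen genes, had all 3 members below 0 and a median of -0.14. All 5 measured members of the miR-15 and miR-16 family were below 0 as well, from -0.35 (miR-195a-5p) to -0.01 ± 0.07 (miR-15a-5p). Of these, miR-16-5p (-0.02 ± 0.07) and miR-322-5p (-0.03 ± 0.27) were also close to 0. Over all 443 miRNAs, 175 were below 0 as scaled. Past 2 spot SDs below 0 were 2 of the 5 in the miR-23, miR-24 and miR-27 clusters. The miR-29 family had 1 of 3 and the miR-15 and miR-16 family 1 of 5, against 11.5% of all 443. The miR-30 family ranged from -0.04 to 0.15. None of these 4 lists held a miRNA past 1.5-fold, and of their medians that of the miR-30 family was below 0 without scaling (-0.33) while the other 3 were further below 0. The miR-181 and miR-200 families and the miR-183 cluster had no member above background on all 4 arrays. Among the smaller lists the medians were -0.02 for let-7e, miR-99 and miR-125 (4 of 6 measured), -0.03 for miR-103 and miR-107 (2 of 2), 0.14 for the miR-26 family (2 of 2), -0.05 for miR-148 and miR-152 (3 of 3) and -0.06 for miR-221 and miR-222 (2 of 2). miR-34a-5p, of the p53-induced miR-34 family, was at 0.19, miR-130a-3p at 0.14, and the GC-rich miR-3960 and miR-2861 at -0.34 and 0.01.

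**Figure D4:**
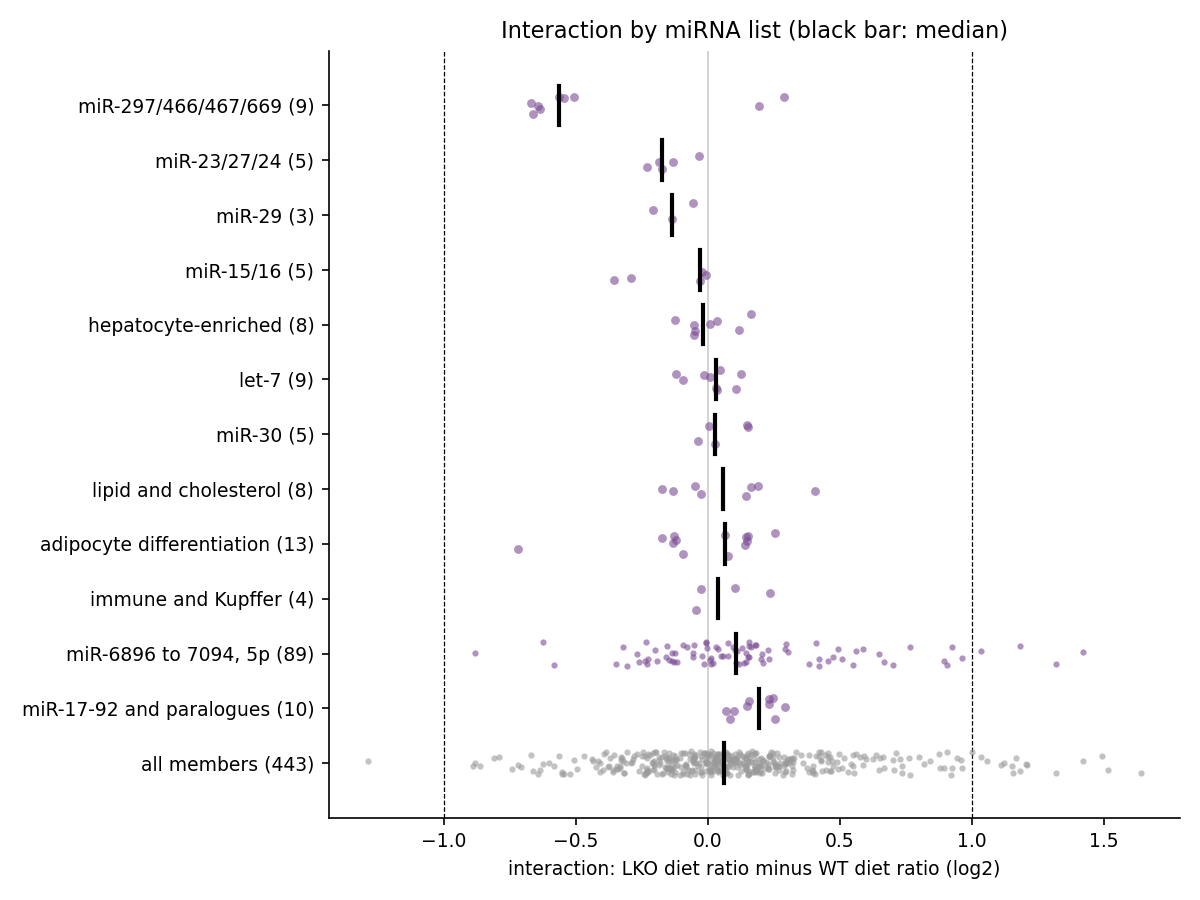
Each row is a list of miRNAs with the number measured in parentheses, each point the interaction of 1 miRNA (log2, x axis) and each black bar the list's median. The 10 members of miR-17-92 and its paralogues all lie above 0 as scaled (below 0 without scaling), and 7 of the 9 members of the miR-297, miR-466, miR-467 and miR-669 families form a group between -0.67 and -0.51.

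The miR-297, miR-466, miR-467 and miR-669 families, whose members carry runs of alternating purines and pyrimidines, have 61 members on the array and 9 above background on all 4. Of these 9, 7 had interactions between -0.67 and -0.51, and miR-466i-5p (0.29 ± 0.08) and miR-669n (0.19 ± 0.15) were above 0. Among the 7, miR-466f-3p, miR-466i-3p, miR-466q and miR-669c-3p had only 1 probe each above background on all 4 arrays. The 7 had log2 diet ratios between -0.48 and -0.30 in LKO EVs and between 0.16 and 0.25 in WT EVs, and 4 of them were past 2 spot SDs, against 11.5% of all 443 in this direction. miR-467f had 83.9 ± 5.9 in HFD-LKO EV, 114.3 ± 6.8 in Chow-LKO EV, 158.1 ± 6.6 in HFD-EV and 138.4 ± 7.3 in Chow-EV, so HFD-LKO EV was lowest and both LKO arrays were below both WT arrays. The median over the 9 was -0.56. The motifs ACACACA and UGUGUGU, picked after the values were seen, were searched in all 376 sequences as written, without the reverse strand. Of the 9, miR-466f-3p, miR-466h-3p, miR-466i-5p, miR-669c-3p and miR-669p-3p are not among the 376, so neither count covers them. ACACACA was found in 3 (0.798%), UGUGUGU in 4 (1.06%), and the first occurrence is in capitals.
miR-467f: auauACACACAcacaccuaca
miR-466i-3p: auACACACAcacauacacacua
miR-466q: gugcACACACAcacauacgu
miR-3082-5p: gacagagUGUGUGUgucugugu
miR-574-5p: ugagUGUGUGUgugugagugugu
miR-1187: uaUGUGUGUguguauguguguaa
miR-669n: auuUGUGUGUggaugugugu
The 3 with ACACACA had interactions of -0.64 ± 0.16, -0.66 ± 0.39 and -0.54 ± 0.23, and the 4 with UGUGUGU had 0.43 ± 0.14, 0.38 ± 0.08, 0.31 ± 0.10 and 0.19 ± 0.15, each in the order printed. Without scaling all are lower by 0.36, which leaves the 3 below 0 and takes miR-1187 and miR-669n below 0 too. The lowest unscaled signal of a miRNA over the arrays had a median of 46.5 in the 3 and of 1071 in the 4. Probes for such repeats can bind several members, and their part in each other's signal was not tested.

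A G- and U-rich motif was shared by many miRNAs with the highest interactions. GGUGG, chosen after the values were seen and searched as written without the reverse strand, was in 43 of the 376 sequences (11.4%) and in 8 of the 15 with a known sequence and a diet ratio at least 2-fold higher in LKO EVs (53.3%). Counted over the motif, 18.6% of the sequences with the motif and 2.10% of the 333 without it were past 2-fold. The 43 had a median interaction of 0.30 against 0.06 in the rest and a range of -0.42 to 1.42. Without scaling these values are all lower by 0.36, and the counts above hold for the scaled values only. Their median log2 diet ratio was -0.02 in LKO EVs and -0.23 in WT EVs, against 0.19 and 0.12 in the rest. The motif is in capitals in the 8.
miR-7032-5p: cccagGGUGGuccccgagagGGUGGu
miR-6939-5p: caggcagcugguuGGUGGaag
miR-5622-3p: cuuagcuggguaguGGUGGugc
miR-7020-5p: ugggauGGUGGagagggugaccag
miR-7647-3p: aaguccaggaGGUGGuaguac
miR-1306-3p: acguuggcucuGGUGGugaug
miR-7037-5p: aaGGUGGccacaggagaucauggu
miR-490-5p: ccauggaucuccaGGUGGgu
The 8 lie in different genes and have different seeds. As this motif was picked from these values, its count is a description and has no test. Of 2 short motifs known from work on EV export, GGAG was in 125 sequences with a median of 0.08 against 0.06 without it, and GGCU in 58 with a median of 0.08 against 0.06. The median interaction moved little with the content of G and C as a whole, at 0.03, 0.06, 0.09 and 0.08 in 4 bins from the lowest content to the highest. At least 2-fold higher were 4 of 96, 4 of 105, 6 of 87 and 1 of 88 in these bins. The median log2 diet ratio fell from 0.29 in the lowest bin to -0.04 in the highest in LKO EVs. In WT EVs it fell from 0.25 to -0.15.

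The 5p arms numbered miR-6896 to miR-7094 (a rule on names, not a family) supplied 89 of the 443 miRNAs and 4 of the 16 past 2-fold (the 3p arms had 2 of 199 measured, at 0.45 and 0.88). The 89 had a median of 0.11, against 0.06 over all 443, and a range of -0.88 (miR-7016-5p) to 1.42 (miR-7032-5p). Of the 89, 13 had a diet ratio at least 1.5-fold higher in LKO EVs and 2 one as much lower, against 10.2% and 3.39% of all 443. By the median, neighbours on the genome were closer in interaction than miRNAs in general. Over 42 pairs from different hairpins within 10 kb the median difference was 0.14, over 19 pairs of arms of 1 hairpin it was 0.27, and over all 97903 pairs 0.32. The pairs share members, so these are descriptions. The 4 measured miRNAs of the miR-290 cluster, known from embryonic stem cells, ranged from 0.29 (miR-290a-5p) to 0.47 (miR-292a-5p), each within 2 spot SDs of 0. The arms of the miR-5132 hairpin were apart, at 0.74 ± 0.20 for the 5p arm and -0.40 for the 3p arm.

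The lists for hepatocytes and metabolism showed little difference between the diet ratios, as did most miRNAs. Of all measured miRNAs, 86.5% had diet ratios within 1.5-fold of each other, and the median interaction was 0.06. All 8 hepatocyte-enriched miRNAs on the array were above background on all 4 arrays, with interactions from -0.12 to 0.16 and a median of -0.02. miR-122-5p had 89913 ± 2259.5 in HFD-LKO EV, 80148 ± 2859.6 in Chow-LKO EV, 89826 ± 2542 in HFD-EV and 89684 ± 2283 in Chow-EV, and its interaction was 0.16 ± 0.08. In the list of lipid and cholesterol metabolism, 8 of 11 were measured with a median of 0.06, and miR-370-3p was highest at 0.41 ± 0.08. In that of adipocyte differentiation, 13 of 15 were measured with a median of 0.06, of which miR-210-3p alone was past 1.5-fold, at -0.72. In the same list, 1 miRNA was past 2 spot SDs above 0 and 2 were past 2 spot SDs below 0, against 19.9% and 11.5% of all 443. The list of inflammatory signalling had 4 of 6 measured, with a median of 0.19 and a range of -0.05 (miR-146a-5p) to 0.27 (miR-212-3p). Of the other miRNAs the study names, miR-31-5p had an interaction of 0.06 ± 0.12 on diet ratios of 1.17 in LKO EVs and 1.11 in WT EVs, miR-23b-3p had -0.23 ± 0.09 and miR-690 had -0.44 ± 0.17.

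Some markers of other cells were above background, and their part in the interactions was not tested. In the immune and Kupffer cell list, 4 of 6 miRNAs were above background on all arrays and miR-142a-5p and miR-150-5p on none. The summed scaled signal of the 4 was 1077 in HFD-LKO EV, 864.6 in Chow-LKO EV, 706.8 in HFD-EV and 555.0 in Chow-EV, and their interactions ran from -0.05 to 0.23. The members did not move together between genotypes. miR-142a-3p was lower in LKO than in WT EVs, with log2 ratios of -0.59 on HFD and -0.69 on chow. miR-223-3p, miR-146a-5p and miR-155-5p were higher in LKO EVs on both diets. Of the erythroid list, 2 of 4 were measured (-0.33 ± 0.41 and 0.24 ± 0.27), with a summed scaled signal of 123.7 in HFD-LKO EV, 92.9 in Chow-LKO EV, 76.5 in HFD-EV and 62.0 in Chow-EV. Of these sums, miR-451a alone gave 92.1 in HFD-LKO EV, 55.3 in Chow-LKO EV, 43.6 in HFD-EV and 30.9 in Chow-EV. Both endothelial markers were measured, at -0.08 ± 0.07 and -0.22 ± 0.30, while the mesenchymal list had 1 of 6 above background, the epithelial list miR-31-5p alone, and the skeletal muscle list none. None of these markers was past 1.5-fold in interaction.

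The size of a signal did not sort the interactions. In 4 bins of mean signal from dim to bright, the medians were 0.04, 0.09, 0.03 and 0.11, the SDs over miRNAs 0.40, 0.43, 0.40 and 0.35, and the counts at least 2-fold higher 4, 5, 3 and 4. The median spot SD was 0.38, 0.21, 0.13 and 0.08 over these bins, so the interactions of dim miRNAs are the least precise. No miRNA spot was saturated.

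**Figure D5:**
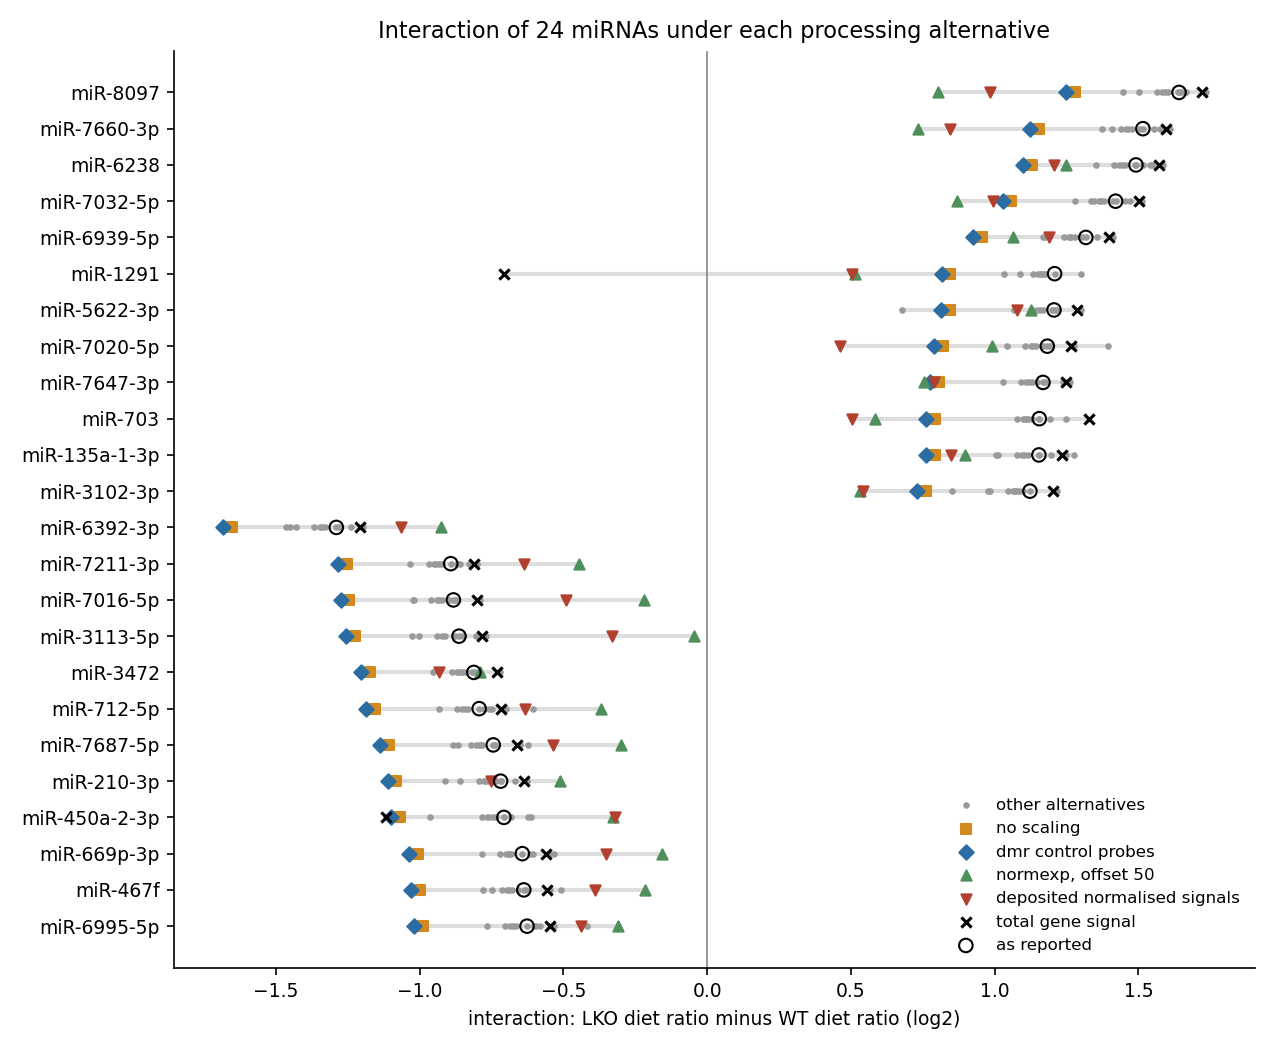
The interaction (log2, x axis) of the 12 highest and 12 lowest miRNAs is shown as reported (open circles) and under each processing alternative, with 5 alternatives marked by their own symbols. All 24 keep their sign except miR-1291, which is at -0.71 with the total gene signal.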

How the data were processed

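Each EV RNA pool was hybridised to 1 single-colour Agilent mouse miRNA array. The deposited intensity values are the processed signals of Agilent Feature Extraction 10.7.1.1 per the file headers, background-subtracted and detrended within an array and not normalised between arrays. The Methods name GenePix Pro and a U6 normaliser instead, which these signals do not carry. The deposited log2 values are the authors' normalised signals, whose normalisation is not described, and served as an alternative. The authors' ratio columns (fold changes of their comparisons) and 4 per-sample columns were not used, among them the HFD-EV column of the combined matrix, which does not follow its array.

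Outlier spots were left out (2321 in HFD-LKO EV, 2544 in Chow-LKO EV, 2473 in HFD-EV and 2146 in Chow-EV, of 56430), spots averaged per probe, the probes of a miRNA summed, and signals divided by the 75th percentile of the miRNAs above background on all 4 arrays. Spot SDs were combined in quadrature. With 1 array per group no test could be made, and a difference counts as called when at least 2-fold. The number of arrays limits the precision. Calculations, tested on simulated data, used Python 3.11.15, numpy 2.4.6, pandas 2.3.3, matplotlib 3.10.9, R 4.3.3 and limma 3.58.1. The alternatives were no scaling, quantile normalisation, normexp background correction with an offset of 50, total gene signal, other filters on dim probes, the deposited log2 signals and a 1.5-fold threshold.

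The miRNAs named are the 12 highest and 12 lowest interactions past 2 spot SDs, those the study names, and members of lists (families, clusters, cell markers, pathways). Others, such as the remaining miRNAs past 2-fold and those of motifs and shared hairpins, were picked after their values were seen. The members and lists were chosen with earlier results of these data known.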

Additional observations from a re-analysis of the deposited data

Results flagged for a closer look

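The diet ratios of miR-7032-5p and miR-6939-5p were at least 1.5-fold above 1 in LKO EVs and at least 1.5-fold below 1 in WT EVs, with interactions of 1.42 for miR-7032-5p and 1.32 for miR-6939-5p. With 1 array per group the difference was not tested.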

How the results depend on the processing

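As reported, the diet ratio was higher in LKO EVs by 2-fold or more for 16 miRNAs and lower for 1, with a median interaction of 0.06. Without scaling there were 4 higher and 13 lower (median -0.30), and with the dmr control probes, an alternative chosen after seeing the data, 4 higher and 14 lower (median -0.33). Those 4 were miR-8097, miR-7660-3p, miR-6238 and miR-7032-5p without scaling. Quantile normalisation gave 12 higher and 3 lower, the Feature Extraction detection call 22 higher and 2 lower, and all 1881 miRNAs with a floor 19 higher and 7 lower (median -0.30). The total gene signal gave 21 higher, of which 13 were among the 16, and 17 lower, and its interactions correlated with those reported at 0.31 across miRNAs, which are not independent replicates. With normexp 3 were higher and 0 lower, with every probe required above background 9 higher and 4 lower, and with the authors' normalised signals 3 higher. At 1.5-fold 45 were higher and 15 lower. Of the named extremes miR-1291 alone turned its sign, to -0.71 with the total gene signal. Factor scalings shift every interaction by 1 constant by construction, and the cause of the other moves was not tested. No paired analysis was possible because each group has 1 array, and for the same reason no replicate could be left out. Dim miRNAs have the widest spot SDs, and the floor of a scaled signal above background was 14.4 in HFD-LKO EV, 15.3 in Chow-LKO EV, 19.6 in HFD-EV and 16.9 in Chow-EV.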

Other observations

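Of the 99 miRNAs above background on some arrays only, 24 were above it on every array but Chow-LKO EV and 15 on every array but HFD-EV. Another 11 were above it on HFD-LKO EV alone, 11 on Chow-LKO EV alone and 9 on HFD-EV alone. miR-141-5p, of the epithelial miR-200 family, had scaled signals of 50.9 in HFD-LKO EV, 15.1 in Chow-LKO EV (not above background), 214.0 in HFD-EV and 55.7 in Chow-EV. miR-878-3p had 77.7 in HFD-LKO EV, 145.8 in Chow-LKO EV, 49.9 in HFD-EV (not above background) and 89.1 in Chow-EV. These values have no interaction in the sense used above, and the 2 miRNAs were picked after their values were seen.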
